A study of Mus musculus with 5 samples.

Results

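The genes described here build ribosomes. They are 40 mouse genes for RNA polymerase I subunits, nucleolar processing factors and small nucleolar ribonucleoproteins (snoRNPs), taken by symbol from the gene tables, which hold 32793 rows in all. All 40 were found and all 40 had enough counts to be tested, among 13501 genes tested. RNA was sequenced in bulk from colon spheroids, which are three-dimensional cultures of colon epithelium. There were 2 libraries of spheroids that carry dimerization-deficient alleles of both Notch1 and Notch2, Notch1DD and Notch2DD (called NDD, and RA in the sample titles), and 3 of wild-type spheroids (WT). Both groups had the same mixed background, C57Bl6 for the most part and FVB for the rest, and the labels name no treatment. The labels give no age or sex of the mice, no number of mice behind a culture and no batch, so p-values measure only the spread between these samples, which may be technical. They also do not limit the alleles to a cell type.

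A ribosome is made from ribosomal RNA and ribosomal proteins, and most of its assembly takes place in the nucleolus. RNA polymerase I transcribes 1 long precursor, which snoRNPs modify and a large complex called the small subunit processome folds and cuts, while a separate set of factors assembles the large subunit. In the intestine this machinery is known to be most active in the dividing cells of the crypt, and the transcription factor Myc is a known activator of many of its genes.

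The transcripts of all 40 genes had fitted levels below WT in NDD, by 2.38% (Utp20) to 43.7% (Gar1), and no single gene passed the test. The median log2 fold change (NDD over WT) was -0.55 over the 40 genes and -0.0047 over all tested genes. Of all tested genes, 50.5% had a log2 fold change below 0. In edgeR's quasi-likelihood test 0 of the 40 had an adjusted p under 0.05, with a lowest adjusted p of 0.412 (Npm1), where 12 of 13501 genes (0.0889%) were called and 3 of them (0.0222%) were lower. At an unadjusted p under 0.05, 12 of the 40 were lower and 0 higher, where 4.68% of all tested genes were lower. DESeq2 called 0 of the 40 as well, with a lowest adjusted p of 0.162, where it called 2.54% of its genes, and 1.01% as lower. In 19 of the 40 both NDD libraries lay below all 3 WT libraries, which was true of 16.2% of all tested genes. The 40 genes were chosen with earlier results of these data known, and most moved together between libraries. These counts and shares are therefore description and not a test, and the 40 are not separate observations.

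The difference was larger in 1 of the 2 NDD libraries. Values are given as CPM, which are counts scaled to a common library total after TMM normalization. The summed level of the 40 genes was 4020 CPM in NDD replicate 1 and 2676 CPM in NDD replicate 2. In WT replicates 1, 2 and 3 it was 4659, 4243 and 5588 CPM. NDD replicate 1 was therefore close to WT replicate 2, and NDD replicate 2 was below every other library. Gene by gene, NDD replicate 2 was the lowest of the 5 libraries for 39 of the 40 genes, against 34.8% of all tested genes, and WT replicate 3 was the highest for 39, against 26.4%. NDD replicate 1 lay inside the WT range for 21 genes and below it for 19. The share of all tested genes was not computed for these counts, so no difference is read from them. Relative to the WT mean, the median over the 40 genes was 85.0% in NDD replicate 1 and 52.3% in NDD replicate 2.

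**Figure D1:**
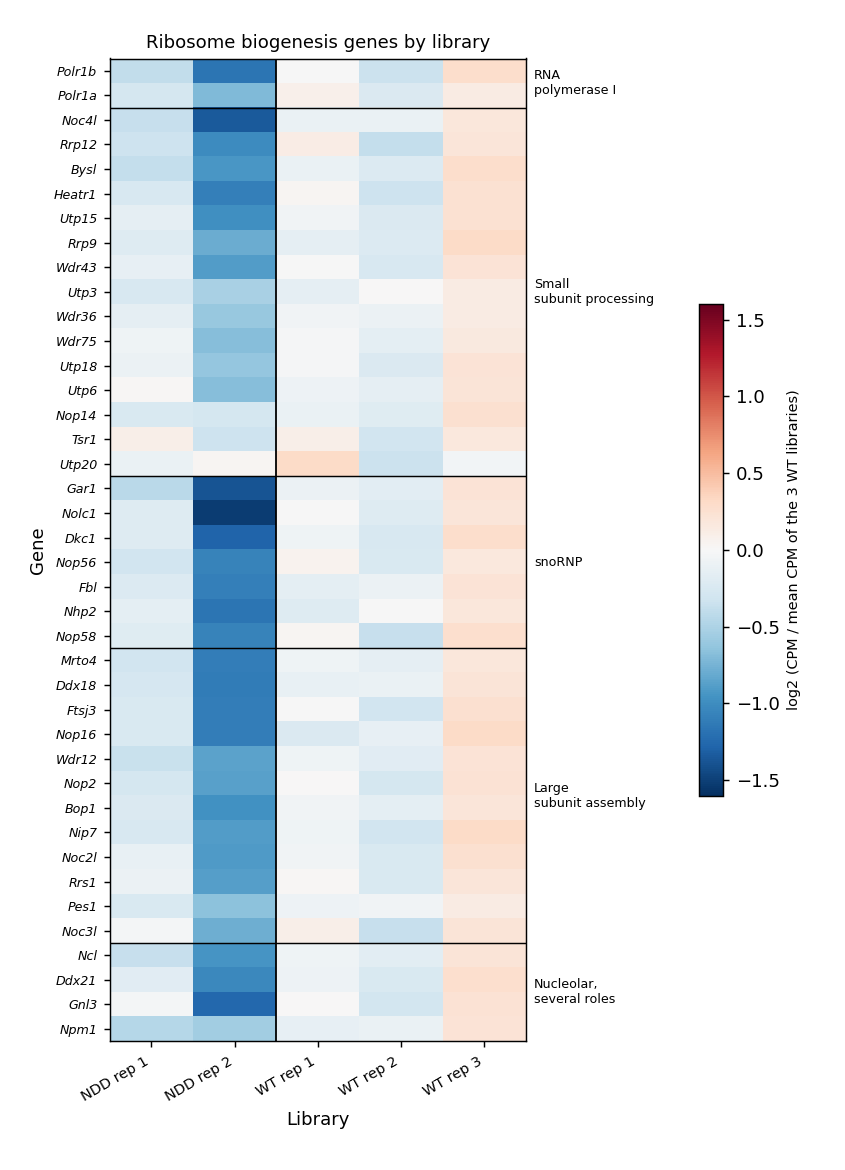
Level of each of the 40 genes (rows, grouped by role) in each of the 5 libraries (columns), as log2 of CPM over the mean CPM of the 3 WT libraries; blue is below and red above that mean. NDD replicate 2 is the lowest library in 39 rows and WT replicate 3 the highest in 39, while NDD replicate 1 is near WT replicate 2.

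Because the 2 NDD libraries were so unlike, each was also set against WT on its own, with the lone library assumed to vary like the WT libraries. With NDD replicate 1 alone the median log2 fold change was -0.22, 38 of the 40 genes were lower, and edgeR called 0 of them (lowest adjusted p 0.690, and 0 at an unadjusted p under 0.05). With NDD replicate 2 alone the median was -0.94, 39 were lower and edgeR called 18, all lower, where it called 8.62% of all tested genes, and 5.66% as lower. The 18 were 3 of 15 small subunit factors (Utp15, Heatr1, Noc4l), 6 of 7 snoRNP genes (all but Nop58), 6 of 12 large subunit factors (Pes1, Bop1, Ddx18, Rrs1, Ftsj3, Mrto4) and 3 of 4 genes with several roles (Ncl, Gnl3, Ddx21). Neither polymerase subunit was among them, though their log2 fold changes with NDD replicate 2 alone were -0.71 (Polr1a) and -1.17 (Polr1b). Nop58, also not among them, was at -1.08, and Pes1, which was, at -0.66. No difference between roles is therefore read from this list.

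**Figure D2:**
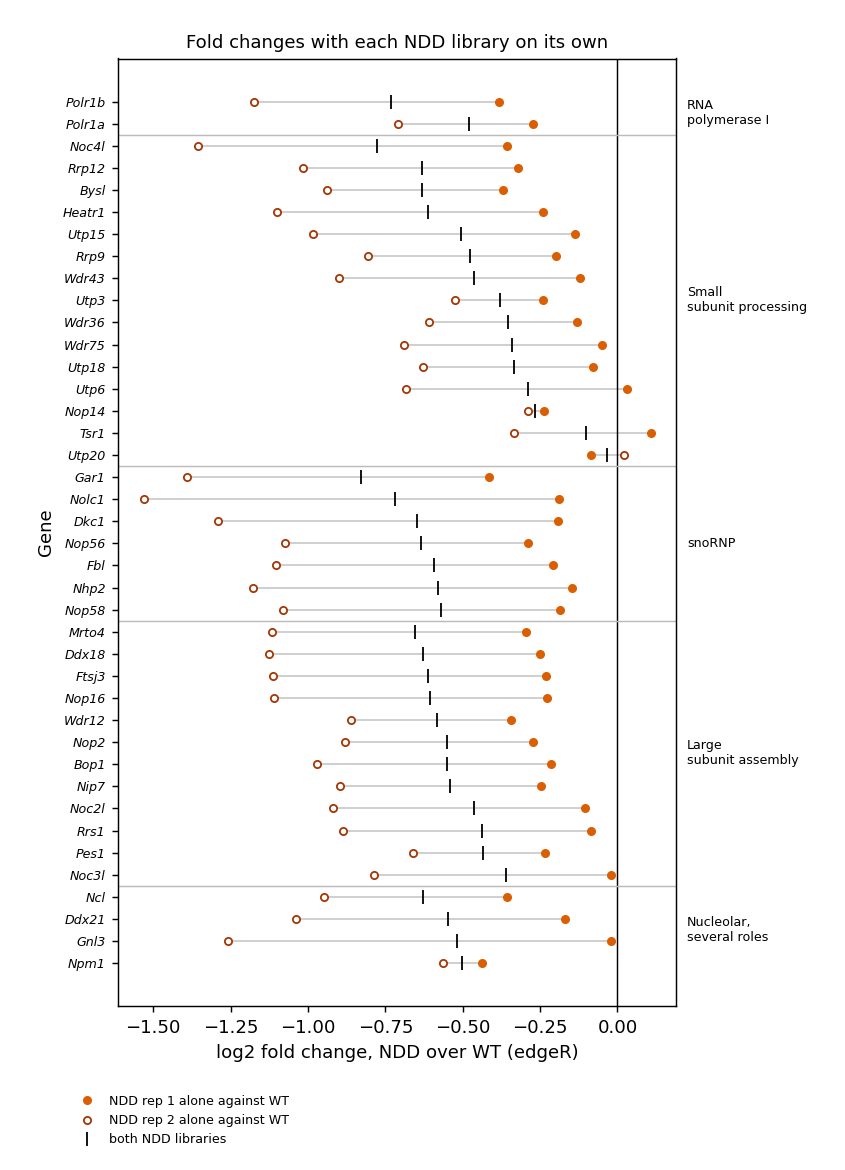
Fitted log2 fold change of each gene against the 3 WT libraries (x axis) for NDD replicate 1 alone (filled circles), NDD replicate 2 alone (open circles) and both (black ticks). The open circles lie to the left of the filled ones for every gene but Utp20, and the 2 lie closest for Nop14, Utp20 and Npm1.

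Proliferation genes were also lowest in NDD replicate 2. The summed level of 16 proliferation genes was 1737 TPM (a share of all transcripts, corrected for their length) in NDD replicate 1, 672 TPM in NDD replicate 2 and 1693 to 1978 TPM in WT. All 16 had fitted levels below WT in NDD (median log2 fold change -0.60), and 0 passed the edgeR test. At an unadjusted p under 0.05, 1 was lower, against 4.68% of all tested genes. NDD replicate 2 was the lowest library for all 16, against 34.8% of all tested genes. Without NDD replicate 2 the median of this list was -0.08. The part of this list in the result was not tested. Of the 6 colon markers 5 were above WT in NDD by the fit and 1 (Car2) below. Their median log2 fold change was 0.39, and edgeR and DESeq2 each called 0. At an unadjusted p under 0.05 in edgeR 2 were higher, where 876 of all 13501 tested genes were higher. In 3 both NDD libraries lay above every WT library, which was true of 2136 of all tested genes. Car1, Car2 and Muc2 overlapped between groups, and Muc2 was highest in WT replicate 1. Slc26a3, a chloride and bicarbonate exchanger of differentiated colonocytes, was at 98.9 and 153.9 TPM in NDD and 71.3, 35.4 and 12.3 TPM in WT, without overlap (edgeR adjusted p 0.437). In bulk RNA, fewer cells of a type and less RNA per cell cannot be told apart, and a change in total RNA per cell is not seen by values scaled to the library total.

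The remaining facts of the libraries bear on all genes. Over all tested genes the rank correlation (Spearman) of NDD replicate 1 was 0.985, 0.982 and 0.973 with WT replicates 1, 2 and 3. With NDD replicate 2 it was 0.966. NDD replicate 2 was at 0.961, 0.966 and 0.939 with the WT replicates. NDD replicate 1 was thus closer to each WT library than to NDD replicate 2. Total counts were 19192389 to 23064000 per library, and the lowest count of any of the 40 genes in any library was 282, so counting error was small beside the spread between libraries. All 9 epithelial markers were tested, with summed levels of 13706 to 15590 TPM, and all 6 colon markers were present. By the fit 7 of the 9 epithelial markers were above WT in NDD and 2 below, with a median log2 fold change of 0.12. edgeR called 0 of them. In 5 of the 9 both NDD libraries lay above every WT library, which was true of 2136 of all 13501 tested genes. Of 10 fibroblast markers 7 were under 1 TPM in every library (Lum and Thy1 had a count of 0 throughout), and the list summed to 9.71 and 10.7 TPM in NDD and 5.16 to 10.9 TPM in WT. Within it Pdgfrb, a growth factor receptor of mural and stromal cells, was higher in both NDD libraries, at 2.98 and 8.17 TPM against 2.12, 1.51 and 1.09 TPM in WT (log2 fold change 1.85, SE 0.51, edgeR adjusted p 0.369), and DESeq2 called it (adjusted p 0.0189). Its part in the results was not tested. Of 10 immune markers 8 were under 1 TPM, with sums of 3.26 and 4.21 TPM in NDD and 5.15 to 8.16 TPM in WT. All 3 that were tested had fitted levels below WT in NDD, and edgeR called 0. Csf1r (log2 fold change -2.86, edgeR adjusted p 0.437) and Cd68 (-0.74, adjusted p 0.472) did not overlap between groups, and Itgam did. Csf1r had low counts, 1 and 8 in NDD and 11, 23 and 70 in WT. The part of these markers in the results was not tested. Of 6 endothelial markers 5 were under 1 TPM (Kdr and Emcn were at 0), with sums of 0.850 and 2.96 TPM in NDD and 0.650 to 1.13 TPM in WT. Notch1 was at 55.96 and 55.1 CPM in NDD and 69.1, 61.7 and 56.3 CPM in WT (exact two-sided permutation test with the smaller tail doubled, p = 0.2, the smallest that 2 against 3 libraries allow in this form). Notch2 was at 37.99 and 26.3 CPM in NDD and 37.7, 36.3 and 55.5 CPM in WT (exact p = 0.6). Counting absolute differences instead, a form whose smallest p is 0.1, gave exact p-values of 0.2 and 0.5. The alleles alter the protein, so these levels do not check the labels.

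Levels differed widely between the 40 genes. Npm1, which encodes nucleophosmin, was the most abundant at 783 ± 69.3 TPM in NDD (SD, n = 2) and 1121 ± 175 TPM in WT (SD, n = 3). Fbl, the methyltransferase of box C/D snoRNPs, followed at 193 ± 89.4 TPM in NDD and 293 ± 46.9 TPM in WT. Nop56 and Nhp2 came next in WT, at 188 ± 14.7 and 187 ± 26.3 TPM, and did not differ beyond their spread. The least abundant gene in WT was Noc3l at 12.5 ± 2.71 TPM, beside Wdr12 at 14.3 ± 2.39 TPM. The median of the WT means over the 40 genes was 50.8 TPM.

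**Figure D3:**
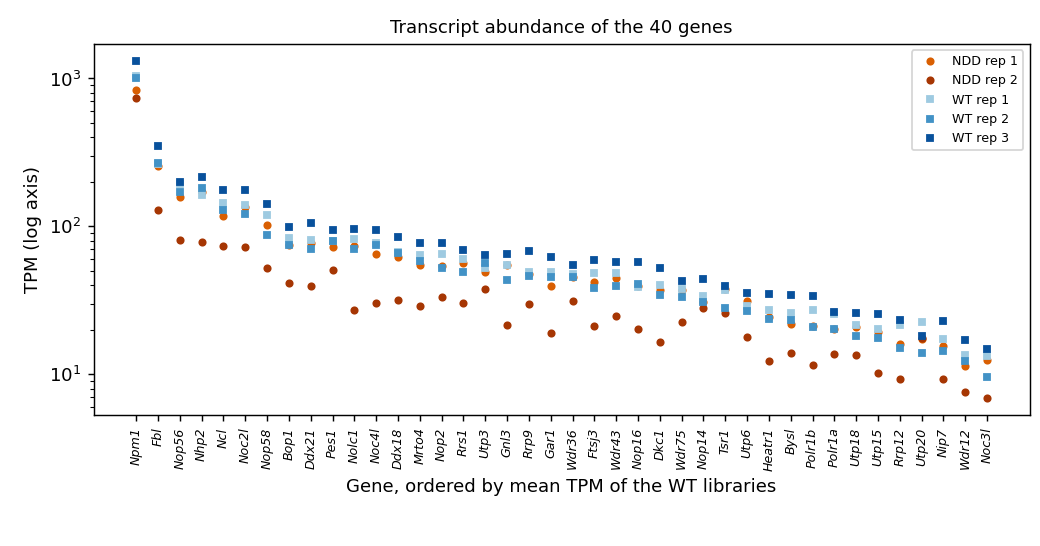
TPM of the 40 genes in each library (log axis), ordered by the mean of the WT libraries; circles are NDD and squares WT. Npm1 stands above the others at 1121 TPM in WT, Noc3l is lowest at 12.5 TPM, and the dark circles of NDD replicate 2 are the lowest points for most genes.

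Promoter sequences were examined because the 40 genes share a direction and because Myc and Notch act through short DNA motifs. RefSeq promoters on GRCm38.p6 (250 bases before to 50 after the start) were matched by symbol for 33 of the 40 genes. Bop1, Fbl, Npm1, Rrp12, Rrs1, Utp6 and Wdr36 had no entry. The E-box CACGTG, the site that Myc and its partner Max can bind, was found in 6 of 33 (18.2%): Nop2, Pes1, Tsr1, Utp18, Utp20 and Wdr43. It was in 8.09% of all 27025 genes with a promoter and in 11.8% of the 10009 tested ones. The ETS core CCGGAAG was found in 11 of 33 (33.3%), against 9.93% of all genes and 20.2% of tested ones. The letters TGCGCA, the core of the NRF1 motif, were in 4 (12.1%, against 8.79% and 15.8%). GTGGGAA, a form of the site of RBPJ, the DNA-binding partner of Notch, was in 3 (9.09%, against 7.25% and 7.26%): Nip7, Rrp9 and Tsr1. Both strands were searched, and a gene with a match in any of its promoters was counted once. Some genes, such as Wdr12 and Noc2l, had several promoter entries, which was not corrected for. TGCGCA and CACGTG read the same on both strands. GC content, averaged over the promoters of a gene, had a median of 60.7% over the 33 genes and also over tested genes.

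The 3 promoters that hold both the E-box and the ETS core are printed with those of Gar1 and Utp20, the genes with the largest and smallest difference. Each is 5′ to 3′ on the gene's strand, and capitals mark the E-box and the ETS core, the latter on either strand. Nop2 is at chr6:125131633-125131932 (+), Tsr1 at chr11:74897830-74898129 (+), Utp18 at chr11:93885717-93886016 (-), Gar1 at chr3:129831347-129831646 (-) and Utp20 at chr10:88826765-88827064 (-). The matches begin 60 and 38 bases before the start in Nop2, and in Tsr1 the ETS core begins 1 base before the start and the E-box 24 bases after it.
Nop2: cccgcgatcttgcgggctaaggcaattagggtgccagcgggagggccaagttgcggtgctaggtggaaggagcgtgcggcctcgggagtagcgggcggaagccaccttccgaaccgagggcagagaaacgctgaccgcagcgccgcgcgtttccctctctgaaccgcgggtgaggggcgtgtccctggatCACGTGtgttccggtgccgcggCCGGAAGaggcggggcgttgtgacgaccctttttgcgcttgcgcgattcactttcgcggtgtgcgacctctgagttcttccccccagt
Tsr1: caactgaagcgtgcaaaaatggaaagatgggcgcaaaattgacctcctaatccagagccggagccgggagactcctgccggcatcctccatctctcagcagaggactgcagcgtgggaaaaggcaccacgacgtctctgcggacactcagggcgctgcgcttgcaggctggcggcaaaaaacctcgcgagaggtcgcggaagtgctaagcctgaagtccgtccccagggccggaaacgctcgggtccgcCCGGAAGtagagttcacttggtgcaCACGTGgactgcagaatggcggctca
Utp18: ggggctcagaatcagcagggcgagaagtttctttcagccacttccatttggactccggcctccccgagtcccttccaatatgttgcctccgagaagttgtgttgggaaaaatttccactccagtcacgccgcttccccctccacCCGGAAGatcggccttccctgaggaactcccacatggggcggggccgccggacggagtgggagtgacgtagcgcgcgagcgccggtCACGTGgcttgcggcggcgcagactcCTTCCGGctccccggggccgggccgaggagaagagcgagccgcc
Gar1: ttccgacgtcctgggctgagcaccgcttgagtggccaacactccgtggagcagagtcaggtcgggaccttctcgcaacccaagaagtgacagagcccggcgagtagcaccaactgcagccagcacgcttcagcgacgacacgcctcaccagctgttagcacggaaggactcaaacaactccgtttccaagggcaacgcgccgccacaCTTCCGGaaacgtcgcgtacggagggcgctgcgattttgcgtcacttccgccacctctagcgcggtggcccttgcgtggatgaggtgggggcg
Utp20: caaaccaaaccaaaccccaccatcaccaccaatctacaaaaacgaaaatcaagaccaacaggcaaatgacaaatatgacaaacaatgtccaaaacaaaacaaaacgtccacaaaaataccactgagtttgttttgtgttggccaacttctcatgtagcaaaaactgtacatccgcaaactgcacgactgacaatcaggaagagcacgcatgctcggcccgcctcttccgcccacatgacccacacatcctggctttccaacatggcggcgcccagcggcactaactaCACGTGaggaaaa

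The 6 genes with an E-box had log2 fold changes from -0.55 (Nop2) to -0.03 (Utp20), and the 11 with an ETS core from -0.83 (Gar1) to -0.10 (Tsr1). Noc4l, with none of the 4 motifs, was at -0.78. No relation between motif and difference was tested. Myc itself was at 264 and 175 CPM in NDD and at 262, 265 and 267 CPM in WT. NDD replicate 1 was inside the range of WT and NDD replicate 2 below it, and its fitted difference was -0.27 on the log2 scale (SE 0.19, edgeR adjusted p 0.534). Without NDD replicate 2 it was 0.0076, and with NDD replicate 2 alone it was -0.60 and was called (adjusted p 0.0451).

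RNA polymerase I was represented by its largest subunit, Polr1a, and its next largest, Polr1b, which together form the catalytic centre. Polr1a was at 81.6 and 61.2 CPM in NDD and at 105, 85.0 and 109 CPM in WT. Polr1b was at 48.6 and 28.5 CPM in NDD and at 63.5, 50.6 and 77.8 CPM in WT. Both NDD libraries were below WT for both genes, with NDD replicate 1 close to WT replicate 2. On the log2 scale the difference was -0.48 for Polr1a (SE 0.18, edgeR adjusted p 0.437) and -0.73 for Polr1b (SE 0.29, adjusted p 0.437). The ratio of Polr1a to Polr1b in TPM was 0.953 and 1.20 in NDD and 0.784 to 0.959 in WT, so it overlapped between the groups. With NDD replicate 1 alone the log2 fold change was -0.27 for Polr1a and -0.38 for Polr1b. With NDD replicate 2 alone it was -0.71 for Polr1a and -1.17 for Polr1b.

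The 15 factors of small subunit processing had a median log2 fold change of -0.38 (-0.14 with NDD replicate 1 alone and -0.69 with NDD replicate 2 alone). In 5 of the 15 both NDD libraries lay below every WT library, against 16.2% of all tested genes. Noc4l, a partner of Nop14 in the processome, was at 72.2 and 36.6 CPM in NDD and 87.0, 86.6 and 106 CPM in WT. It had the largest difference of the group, at -0.78 on the log2 scale (SE 0.30, edgeR adjusted p 0.437). Rrp12, a HEAT-repeat protein of pre-ribosome export, was at 40.2 and 25.2 CPM in NDD and 54.9, 39.0 and 58.2 CPM in WT, where NDD replicate 1 lay above WT replicate 2 (log2 fold change -0.63, SE 0.27, adjusted p 0.456). Utp3, a core processome protein, was at 41.7 and 34.7 CPM in NDD and 44.8, 49.9 and 54.3 CPM in WT, with no overlap (log2 fold change -0.38, SE 0.15, adjusted p 0.446).

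Utp20 and Tsr1 had the smallest fitted differences of the group, and no test compared them with the other genes. Utp20, a very large scaffold protein of the processome, was at 90.9 and 99.4 CPM in NDD and at 120.9, 76.6 and 95.003 CPM in WT. Both NDD values fell within the WT range, and it was the only 1 of the 40 in which NDD replicate 2 exceeded NDD replicate 1. Its fitted difference of -0.03 on the log2 scale (SE 0.20, edgeR adjusted p 0.943) became 0.02 without NDD replicate 1 and 0.15 without WT replicate 1. Tsr1, a late factor of cytoplasmic small subunit maturation, was at 72.4 and 54.1 CPM in NDD and 72.6, 55.02 and 76.1 CPM in WT. As in most of the genes, NDD replicate 2 was its lowest library and WT replicate 3 its highest. Its log2 fold change was -0.10 (SE 0.20, adjusted p 0.819) and was 0.11 without NDD replicate 2. In the GENCODE M21 annotation 32.3% of the Tsr1 exon bases overlap Srr on the opposite strand, and whether counting used strand is not stated, so the Tsr1 values are uncertain. The other 10 factors had log2 fold changes between -0.63 (Bysl) and -0.27 (Nop14), with adjusted p-values of 0.437 to 0.580. Utp6, a processome protein, was at -0.29 and was 0.03 without NDD replicate 2. Nop14 was nearly equal in the 2 NDD libraries, at 47.1 and 46.1 CPM, below the WT values of 52.02, 49.1 and 66.9 CPM.

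**Figure D4:**
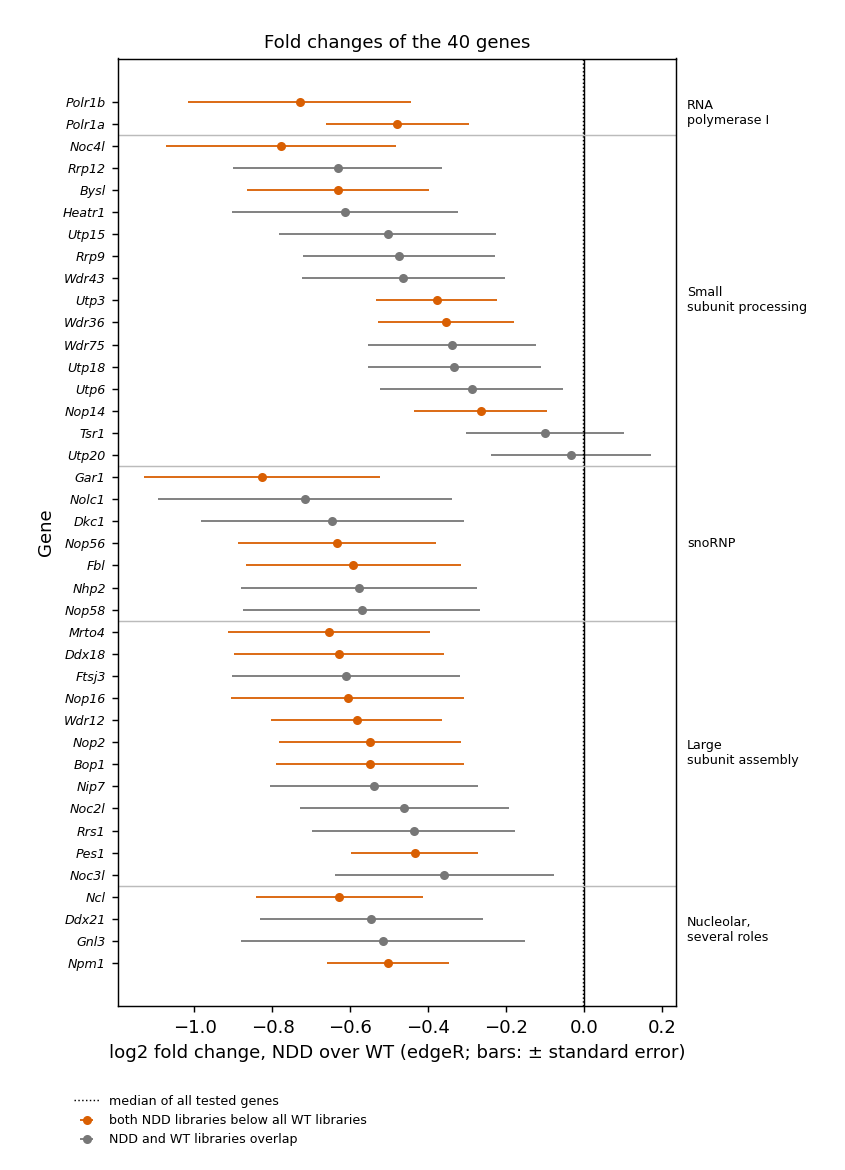
Log2 fold change, NDD over WT, of each gene with its standard error (bars), grouped by role; orange marks the 19 genes whose NDD libraries both lie below all WT libraries and grey the overlapping ones. All 40 points lie left of 0, from -0.83 (Gar1) to -0.03 (Utp20), and no gene passed the test.

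The 7 snoRNP genes had a median log2 fold change of -0.64, which was -0.19 with NDD replicate 1 alone and -1.18 with NDD replicate 2 alone. Box C/D snoRNPs methylate ribosomal RNA and contain Fbl, Nop56 and Nop58. Fbl was at 149 and 81.1 CPM in NDD and 155, 163 and 202 CPM in WT, with no overlap (log2 fold change -0.59, SE 0.28, edgeR adjusted p 0.465). Nop58 was at 110.4 and 60.3 CPM in NDD and 129.9, 98.1 and 152 CPM in WT, and overlapped (log2 fold change -0.57, SE 0.30, adjusted p 0.481). The ratio of Fbl to Nop58 in TPM was 2.50 and 2.49 in NDD and 2.22 to 3.08 in WT.

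Box H/ACA snoRNPs convert uridine to pseudouridine and contain the enzyme Dkc1 with Gar1, Nhp2 and Nop10. Gar1 was at 25.6 and 13.2 CPM in NDD and 32.3, 30.8 and 40.2 CPM in WT, with no overlap (log2 fold change -0.83, SE 0.30, edgeR adjusted p 0.437). Nhp2 was at 82.5 and 41.02 CPM in NDD and 80.3, 91.99 and 105 CPM in WT, where NDD replicate 1 lay above WT replicate 1 (log2 fold change -0.58, SE 0.30, adjusted p 0.480). The Gar1 to Dkc1 ratio in TPM was 1.06 and 1.15 in NDD against 1.19 to 1.32 in WT. The Nhp2 to Gar1 ratio was 4.31 and 4.14 in NDD against 3.32 to 3.99 in WT. Of the 12 ratios between partners these 2, which share Gar1, had no overlap between groups, and no difference is read from that, since with 10 ways to split the libraries an exact permutation test cannot pass 0.05. Nolc1, a chaperone that carries snoRNPs to the nucleolus, was at 154 and 61.8 CPM in NDD and 176, 153 and 203 CPM in WT. Its NDD replicate 1 value was inside the WT range and its NDD replicate 2 value was 34.8% of the WT mean, the lowest such share among the 40 genes (log2 fold change -0.72, SE 0.38, adjusted p 0.480).

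Several of the genes also carry the snoRNAs that these particles contain. In the GENCODE M21 annotation 7 of the 40 genes (17.5%) enclose at least 1 snoRNA gene on their own strand, 21 in all, against 1.77% of 12138 tested protein-coding genes. They are Wdr43 (3 snoRNA genes), Tsr1 (2), Nop56 (5), Nop58 (4), Dkc1 (1), Ncl (3) and Gnl3 (3). Excised snoRNAs have no poly(A) tail, so a library made from polyadenylated RNA does not measure them, and only the host transcripts are described here.

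The 12 factors of large subunit assembly had a median log2 fold change of -0.55 (-0.23 with NDD replicate 1 alone and -0.91 with NDD replicate 2 alone). In 7 of the 12 both NDD libraries lay below every WT library, against 16.2% of all tested genes. Pes1, which forms the PeBoW complex with Bop1 and Wdr12, was at 119.4 and 90.1 CPM in NDD and 134, 136 and 155 CPM in WT (log2 fold change -0.44, SE 0.16, edgeR adjusted p 0.437). All 3 PeBoW genes were below WT in both NDD libraries. The Pes1 to Bop1 ratio in TPM was 0.971 and 1.22 in NDD and 0.942 to 1.06 in WT, and the Pes1 to Wdr12 ratio was 6.40 and 6.697 in NDD and 5.53 to 6.42 in WT. Both ratios overlapped.

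Among the other large subunit factors, Mrto4, which holds the place of the ribosomal stalk protein during assembly, was at 33.4 and 19.2 CPM in NDD and 39.7, 37.5 and 47.1 CPM in WT (log2 fold change -0.66, SE 0.26, edgeR adjusted p 0.439). Ddx18, an RNA helicase, was at 76.6 and 42.4 CPM in NDD and 84.8, 85.5 and 106 CPM in WT (log2 fold change -0.63, SE 0.27, adjusted p 0.456). Neither overlapped between groups. Noc2l and Noc3l, partners that travel with large subunit particles, did overlap. Noc2l was at 217 and 125 CPM in NDD and 227, 199.5 and 281 CPM in WT (log2 fold change -0.46, SE 0.27, adjusted p 0.493). Noc3l was at 28.6 and 17.0 CPM in NDD and 31.2, 22.8 and 33.9 CPM in WT (log2 fold change -0.36, SE 0.28, adjusted p 0.570). The remaining 7 (Wdr12, Bop1, Nop2, Nop16, Rrs1, Nip7 and Ftsj3) had log2 fold changes between -0.61 and -0.44. In 9 of the 40 genes over 10% of the 31-base sequences also occur in another annotated gene, so their counts are uncertain: Nop56, Fbl, Wdr12, Pes1, Ddx18, Rrs1, Nip7, Mrto4 and Npm1. The share was highest for Ddx18 (65.5%), Pes1 (32.4%) and Npm1 (29.2%). For Noc2l, 20.9% of the exon bases overlap Samd11 on the opposite strand.

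The last group holds abundant nucleolar proteins with several roles, and its median log2 fold change was -0.53 (-0.26 with NDD replicate 1 alone and -0.99 with NDD replicate 2 alone). Npm1, a histone and ribosome chaperone, was at 565 and 525 CPM in NDD and 704, 715 and 897 CPM in WT. The 2 NDD libraries were close to each other and both below WT, at 73.1% and 68.03% of its mean (log2 fold change -0.50, SE 0.16, edgeR adjusted p 0.412). Ncl, nucleolin, was at 578 and 389.8 CPM in NDD and 717, 664 and 864 CPM in WT, also without overlap (log2 fold change -0.63, SE 0.21, adjusted p 0.437). Gnl3, nucleostemin, a GTP-binding protein of dividing cells, was at 56.7 and 24.4 CPM in NDD and 58.4, 47.3 and 68.5 CPM in WT. Its NDD replicate 1 value was inside the WT range, and the log2 fold change moved from -0.52 (SE 0.36, adjusted p 0.541) to -0.02 without NDD replicate 2. Ddx21, a helicase that links RNA polymerase I and II transcription, was at 212 and 118 CPM in NDD and 228, 203 and 291 CPM in WT, and overlapped (log2 fold change -0.55, SE 0.29, adjusted p 0.480).

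The rest of the pathway was read from a list of 92 further ribosome biogenesis genes, all of which were tested. edgeR called 0 of them in either direction, 13 had an unadjusted p under 0.05 and all 13 were lower, against 4.68% of all tested genes. Of the 92, 88 had a log2 fold change below 0, with a median of -0.36, and 38 had both NDD libraries below WT, against 16.2% of all tested genes. With NDD replicate 2 alone 23 were called, all lower, against 5.66% of all tested genes, and with NDD replicate 1 alone the median was -0.12. By role the medians were -0.55 for 4 snoRNP genes, -0.38 for 32 small subunit factors, -0.39 for 33 large subunit factors, -0.35 for the 10 RNA exosome genes and -0.13 for 13 genes of RNA polymerase I and its initiation factors. Nop10, the fourth H/ACA protein, was at 68.98 and 43.4 CPM in NDD and 80.9, 86.8 and 102.3 CPM in WT (log2 fold change -0.68, SE 0.23, edgeR adjusted p 0.435), the lowest of the list. Ubtf, the factor that opens ribosomal DNA for RNA polymerase I, was at 140.5 and 113.3 CPM in NDD and 130.9, 117 and 135 CPM in WT, with both groups overlapping (log2 fold change -0.0096, SE 0.14, adjusted p 0.979). The 4 genes with a log2 fold change above 0 were Nop53 (0.16), Ttf1 (0.12), Exosc5 (0.12) and Taf1b (0.10), with adjusted p-values of 0.649 to 0.834. These 4, Nop10 and Ubtf were picked with their values in view.

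**Figure D5:**
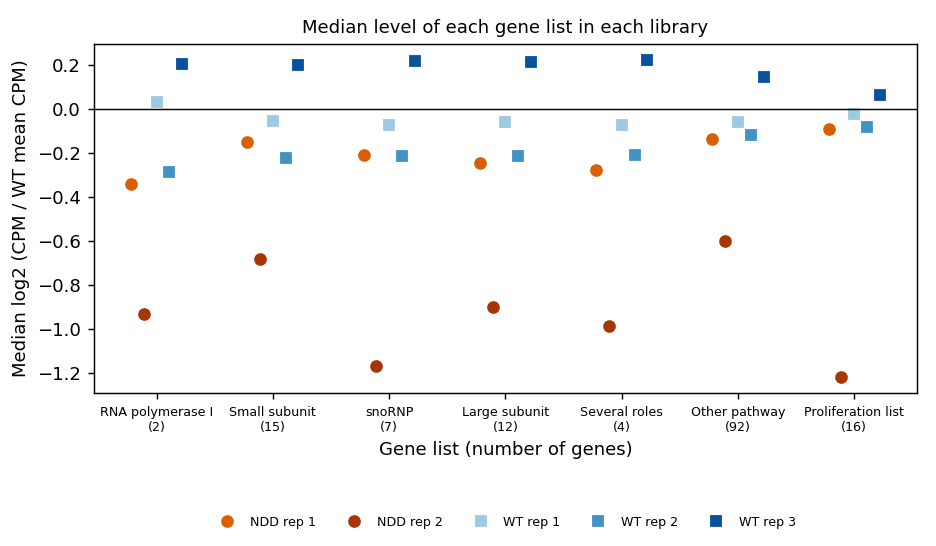
Median over the genes of each list of log2 (CPM over the WT mean CPM), for each library; circles are NDD, squares WT, and numbers of genes stand in parentheses. NDD replicate 2 is the lowest point of every list, at -0.68 for the small subunit factors, -1.17 for the snoRNP genes, -0.60 for the other pathway genes and -1.22 for the proliferation list, while NDD replicate 1 lies between -0.34 and -0.09.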

How the data were processed

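Per the labels' protocols, total RNA went into a stranded mRNA preparation. Bowtie2, RSEM and the build mm10 are named in the submitters' processing notes, without role or version; the gene annotation is not given in the sources used here. The authors deposited estimated counts per gene as whole numbers without normalization, and TPM, which the authors' processing corrects for length and library size. In 214 cells a count of 0 stood beside a TPM above 0, so the counts were treated as rounded estimates.

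The counts of all 5 libraries were tested with edgeR 4.0.16 (R 4.3.3): genes kept by filterByExpr, TMM factors, quasi-likelihood fit with robust prior, prior count 0.125, no covariate, Benjamini-Hochberg adjustment over 13501 genes, calls at an adjusted p under 0.05. The standard error is the size of the log2 fold change over the square root of F. The code was tested on simulated counts. Depth was 19192389 to 23064000 counts per library, and counting error is only part of the error.

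The members and lists were chosen with earlier results of these data known. In each role group of over 4 genes, every library is printed for the 2 highest in TPM and the 2 with the largest and the 2 with the smallest fold change (21 genes with the small groups); partners in ratios and other single genes were chosen after their values were seen. Positions, overlaps and snoRNAs are from GENCODE M21 (GRCm38). Alternatives were RLE and upper-quartile factors, other filters, DESeq2 1.42.0, limma 3.58.1 with a mean trend on log2(TPM + 1) or log2(TPM + 0.1), a replicate block, and leaving out each library. The second form of the exact permutation test was added after the data were seen.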

Additional observations from a re-analysis of the deposited data

How the results depend on the processing

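All 40 genes kept a log2 fold change below 0 and none was called under RLE and upper-quartile factors, both other filters, DESeq2, the 3 limma fits on TPM and the replicate block (lowest adjusted p 0.162, DESeq2), and their median stayed between -0.61 and -0.46. Leaving out 1 library at a time gave 0 to 18 called genes of the 40, 0 to 23 of the 92 other pathway genes and 0 to 1207 of all genes, each highest without NDD replicate 1, and a median from -0.94 (without NDD replicate 1) to -0.22 (without NDD replicate 2). Over those fits Utp20 ranged from -0.17 to 0.15, Tsr1 from -0.33 to 0.11, Utp6 from -0.68 to 0.03 and Myc from -0.60 to 0.0076, so these changed sign. Of the 21 genes printed by library, 11 were called without NDD replicate 1 and in no other fit, as was Myc. The number of all genes called, 12, was 58 with no filter, 4 with 10 counts in every library, 365 with DESeq2 and 33 with the replicate block; without WT replicate 1, 2 or 3 it was 0, 5 and 3 (1211, 1000 and 687 at an unadjusted p under 0.05). The cause was not tested. The labels do not say that replicate numbers mark a shared litter or day, and deviations of same-numbered libraries correlated at -0.0095 and 0.35. With the replicate block, in which WT replicate 3 adds nothing to the contrast and 1 residual degree of freedom remains, 0 of the 40 were called and the median was -0.46.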

Other observations

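The other nuclear RNA polymerases were read beside RNA polymerase I, on lists chosen after the results were seen and therefore given without a test of the lists. RNA polymerase II, which makes messenger RNA, had 12 tested subunit genes with a median log2 fold change of -0.31. Of these, 10 were below 0, and edgeR called 0 (lowest adjusted p 0.390, 1 gene at an unadjusted p under 0.05, and 0 called by DESeq2). The median log2 of CPM over the WT mean was -0.15 in NDD replicate 1 and -0.50 in NDD replicate 2. Of the 5 subunits shared by all 3 polymerases, Polr2l and Polr2f had the lowest log2 fold changes of the list, while Polr2e was at -0.36, Polr2h at -0.23 and Polr2k at 0.02. Polr2f was at 40.5 and 30.6 CPM in NDD and 50.01, 52.4 and 55.4 CPM in WT, with no overlap (log2 fold change -0.57, SE 0.16, edgeR adjusted p 0.390). Polr2l was at 37.3 and 17.7 CPM in NDD and 36.6, 37.7 and 52.6 CPM in WT, and overlapped (log2 fold change -0.62, SE 0.35, adjusted p 0.483).

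RNA polymerase III, which makes transfer RNA and 5S ribosomal RNA, had 11 tested subunit genes with a median log2 fold change of -0.15. Of these, 8 were below 0 and edgeR called 0 (lowest adjusted p 0.460, 0 at an unadjusted p under 0.05, and 0 called by DESeq2). The median log2 of CPM over the WT mean was 0.0042 in NDD replicate 1 and -0.32 in NDD replicate 2. Polr3gl and Polr3g encode alternative forms of 1 subunit, of which Polr3g is known from stem and dividing cells. Polr3gl was at 14.6 and 20.7 CPM in NDD and 11.8, 14.3 and 9.61 CPM in WT, with both NDD libraries above WT (log2 fold change 0.57, SE 0.25, edgeR adjusted p 0.460). Polr3g was at 23.7 and 17.2 CPM in NDD and 29.1, 24.8 and 27.6 CPM in WT, with both NDD libraries below WT (log2 fold change -0.41, SE 0.19, adjusted p 0.465). The difference between these forms was not tested.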
